A study of Arabidopsis thaliana with 16 samples.

Results

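The CLE genes encode short secreted peptide precursors of Arabidopsis thaliana. Khib, the 2-hydroxyisobutyryl group that chromatin carries on lysines of histones, was read over 10 of them: CLV3, CLE1 to CLE7, CLE20 and CLE41. They were taken by locus identifier from 32548 genes with a value in every genotype. The group was chosen by measured values, namely the low CLE2 in sant-null and the high CLE20 in hda6, so these levels, and everything else measured in the same comparisons, are given as descriptions with no test.

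Chromatin immunoprecipitation with an antibody to Khib and sequencing was applied to whole 12-day-old seedlings, untreated and grown at 22 °C. Per the labels, the 4 genotypes were the wild type Col-0, a quadruple mutant called sant-null, an EMS line of hda6 and a T-DNA insertion line of hda9. HDA6 and HDA9 encode histone deacetylases, and the labels do not name the genes of the quadruple mutant. Each genotype had 2 ChIP and 2 input libraries, but the deposited gene tables hold 1 ChIP value per genotype, so no difference has a replicate check, and a difference between genotypes cannot be told apart from one between libraries.

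Values are RPKM, reads scaled to gene length and library depth. They corresponded to whole reads, with 38.8 M reads behind hda9, 18.6 M behind Col-0, 16.75 M behind hda6 and 12.0 M behind sant-null, so hda9 has the smallest counting error. Every interval below is a 95% interval from these reads and covers counting error only. The median gene had 8.88 RPKM in hda9, 7.86 in sant-null, 7.08 in hda6 and 5.63 in Col-0. The 95th percentile of genes was 20.3 times the 5th in Col-0 and 8.45 times in hda9, so levels in hda9 lie closer together over the whole genome. HDA6 itself had 11.8, 11.7, 12.0 and 10.9 RPKM and HDA9 2.33, 2.89, 2.50 and 6.10 in the order Col-0, sant-null, hda6, hda9, which is the mark over those genes and does not check a genotype. Input values were not used, and in whole seedlings less of the mark per cell cannot be told apart from fewer cells that carry it.

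CLE precursors are cut to peptides that bind leucine-rich-repeat receptor kinases on neighbouring cells. CLV3, made by stem cells of the shoot meristem, acts through CLV1 and related receptors to restrain the homeobox gene WUS. CLE41 gives rise to TDIF, a phloem signal that binds PXY and maintains the vascular cambium, in part through WOX4. CLE1, CLE3, CLE4 and CLE7 belong to a group of closely related peptides known for responses to nitrogen supply in roots. These genes are active in few cells of a seedling, and the values here average over all its cells.

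In Col-0 the 10 genes differed widely in Khib. Their levels ran from 1.79 RPKM at CLE7 to 16.6 at CLE2, with a median of 3.36 beside 5.63 for all genes. Of the 10, 6 lay below the 50th percentile of all genes, near the 50% that holds for all genes by definition. CLE2 stood at percentile 87.1 of all genes and CLE4, at 11.4 RPKM, at percentile 77.5, while CLE5 at 1.86 RPKM and CLE7 were at percentiles 10.5 and 9.8. The highest member was 9.28 times the lowest in Col-0 and 9.35 times in hda6, but 2.88 times in sant-null and 2.41 times in hda9. Over all genes the spread in sant-null was not narrower than in Col-0. CLE2, the highest member in Col-0 and hda6, is the gene whose low sant-null value chose the group. The genes are short, 381 to 1171 bp, and counts ran from 12 reads (CLE7 in hda6) to 352 reads (CLE2 in hda9). Chromosomal positions are those of the TAIR10 build.

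**Figure D1:**
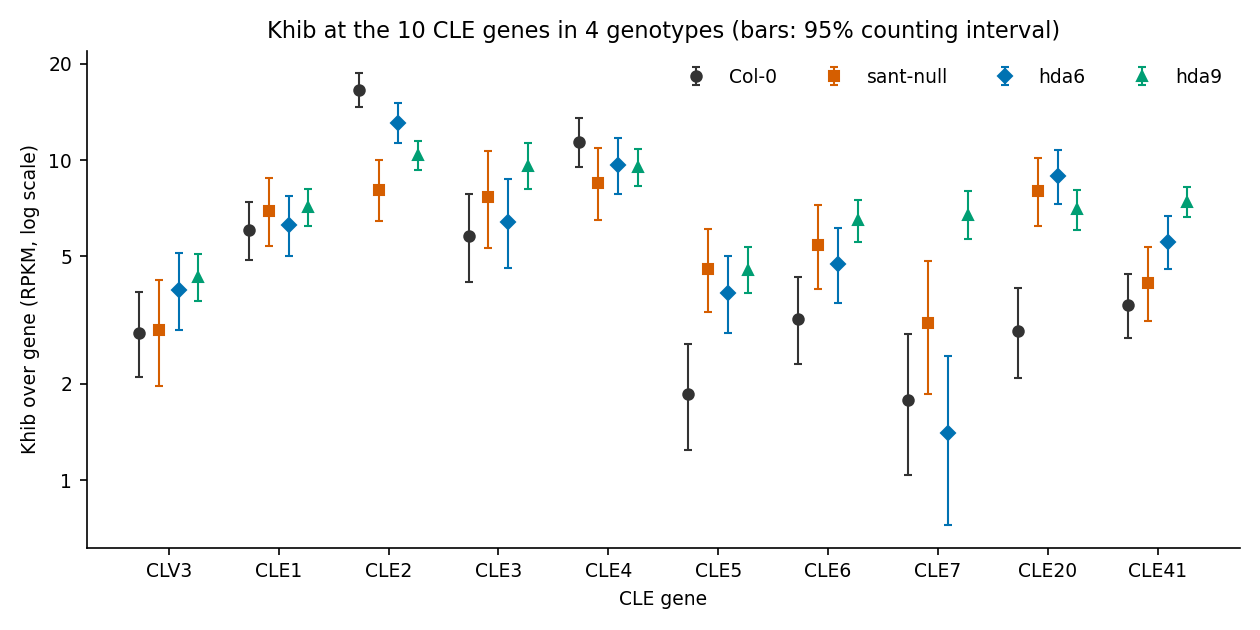
Khib level (RPKM, log scale) of each of the 10 CLE genes in Col-0, sant-null, hda6 and hda9; points are the deposited values and bars the 95% counting intervals. CLE2 was highest in Col-0 at 16.6 RPKM, and the Col-0 point of CLE20, at 2.92 RPKM, lies below the points of the 3 mutants.

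CLE2 (AT4G18510, chromosome 4, 10211577 to 10212452, plus strand), a peptide gene of the CLE1 to CLE7 group, had 16.6 RPKM in Col-0, 13.1 in hda6, 10.4 in hda9 and 8.09 in sant-null. The reads behind these levels were 270, 192, 352 and 85. On the RPKM scale the steps from Col-0 down to hda6, hda9 and sant-null were 1.27-fold (1.05 to 1.53), 1.26-fold (1.05 to 1.51) and 1.28-fold (1.01 to 1.64). This order is a description, since the low sant-null value chose the group, and with the trend of the ratio with level removed hda6 (log2 ratio -0.53) and hda9 (-0.51) exchange places. The fold to Col-0 was 0.488 in sant-null (0.378 to 0.625), 0.790 in hda6 (0.653 to 0.953) and 0.625 in hda9 (0.532 to 0.736). Relative to all genes, CLE2 stood at percentile 87.1 in Col-0, 75.9 in hda6, 64.0 in hda9 and 51.7 in sant-null. Of the 31805 genes that reached 1 RPKM in 2 or more genotypes, 2.08% had a lower log2 ratio to Col-0 than CLE2 in sant-null, 8.17% in hda9 and 7.75% in hda6. The 3 comparisons share the Col-0 value, so they are not separate evidence that Col-0 is high.

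CLE20 (AT1G05065, chromosome 1, 1454606 to 1455322, minus strand) encodes a peptide that shortens the primary root when it is applied to seedlings. It had 2.92 RPKM in Col-0 from 39 reads, 8.02 in sant-null from 69, 8.91 in hda6 from 107 and 7.01 in hda9 from 195. Col-0 alone was low. The fold to Col-0 was 2.74 in sant-null (1.83 to 4.17), 3.05 in hda6 (2.09 to 4.52) and 2.40 in hda9 (1.69 to 3.48). Among the mutants no pair differed beyond counting error, and the widest gap, hda6 over hda9, was 1.27-fold with an interval of 0.994 to 1.62. CLE20 stood at percentile 23.0 of all genes in Col-0, 60.1 in hda6, 51.2 in sant-null and 30.8 in hda9. By log2 ratio it ranked 91st from the top of the 31805 genes in hda6, 678th in sant-null and 5471st in hda9. All 3 comparisons share the Col-0 count of 39 reads. In hda9 the log2 ratio of CLE20 was 1.03 as deposited, but 0.55 with equal medians, 0.24 after quantile normalization and 0.10 with the trend removed.

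CLE4, CLE7, CLE5 and CLE6 lie in this order within 16839 bp of chromosome 2 (13238021 to 13254859), all on the plus strand, with no other gene of the table between them. The gaps are 2716 bp, 10219 bp and 1237 bp. Whether reads that fit several similar gene copies were kept or dropped was not given, so values within this group of related genes are uncertain to that extent. The neighbours did not all share a pattern, though CLE5 and CLE6 were both lowest in Col-0.

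CLE4 (AT2G31081) had 11.4 RPKM in Col-0, and 8.50 (sant-null), 9.62 (hda6) and 9.50 (hda9) in the mutants, and none of its 6 pairs differed beyond counting error. The fold of sant-null to Col-0 was 0.745, with an interval of 0.541 to 1.02. CLE7 (AT2G31082), the next gene, had 1.79 RPKM in Col-0, and 3.09 (sant-null), 1.40 (hda6) and 6.75 (hda9) in the mutants. Only hda9 stood above the rest, and even there CLE7 was at percentile 28.2 of all genes. It rested on 17, 19, 12 and 134 reads, and hda9 was above Col-0 by 3.78-fold (2.28 to 6.68), above sant-null by 2.18-fold (1.34 to 3.74) and above hda6 by 4.82-fold (2.67 to 9.57). Between the low values, sant-null was 2.21-fold above hda6 (1.02 to 4.99), while Col-0 could not be separated from either. The log2 ratio of hda9 to Col-0 was 1.48 for CLE7, the highest of the 10 genes, and 0.50 once the trend of the ratio with level was removed.

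CLE5 (AT2G31083) and CLE6 (AT2G31085), whose peptides are known from leaf development, are the closest pair. CLE5 had 1.86 RPKM in Col-0, and 4.57 (sant-null), 3.84 (hda6) and 4.55 (hda9) in the mutants. As at CLE20, Col-0 was low: the folds were 2.46 (1.51 to 4.06), 2.07 (1.29 to 3.37) and 2.45 (1.64 to 3.78), and no pair of mutants differed beyond counting error, with folds up to 1.19. The CLE5 value in Col-0 came from 29 reads. Relative to all genes, CLE5 stood at percentile 10.5 in Col-0, 25.3 in sant-null and 27.0 in hda6, but 12.5 in hda9. In hda9 its log2 ratio was 0.96 as deposited, but 0.12 after quantile normalization and 0.06 with the trend removed. CLE6 had 3.19, 5.41, 4.72 and 6.48 RPKM in the order Col-0, sant-null, hda6, hda9. It was 1.70-fold above Col-0 in sant-null (1.09 to 2.64) and 2.03-fold in hda9 (1.45 to 2.92), and 1.48-fold in hda6 with an interval that includes 1 (0.975 to 2.26). The only pair of mutants that differed beyond counting error at CLE6 was hda9 over hda6, at 1.37-fold (1.01 to 1.89). Relative to all genes this order was reversed, with CLE6 at percentile 25.8 in hda9 and 33.5 in hda6. With the trend removed its log2 ratio to Col-0 was -0.09 in hda9 and 0.22 in hda6.

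**Figure D2:**
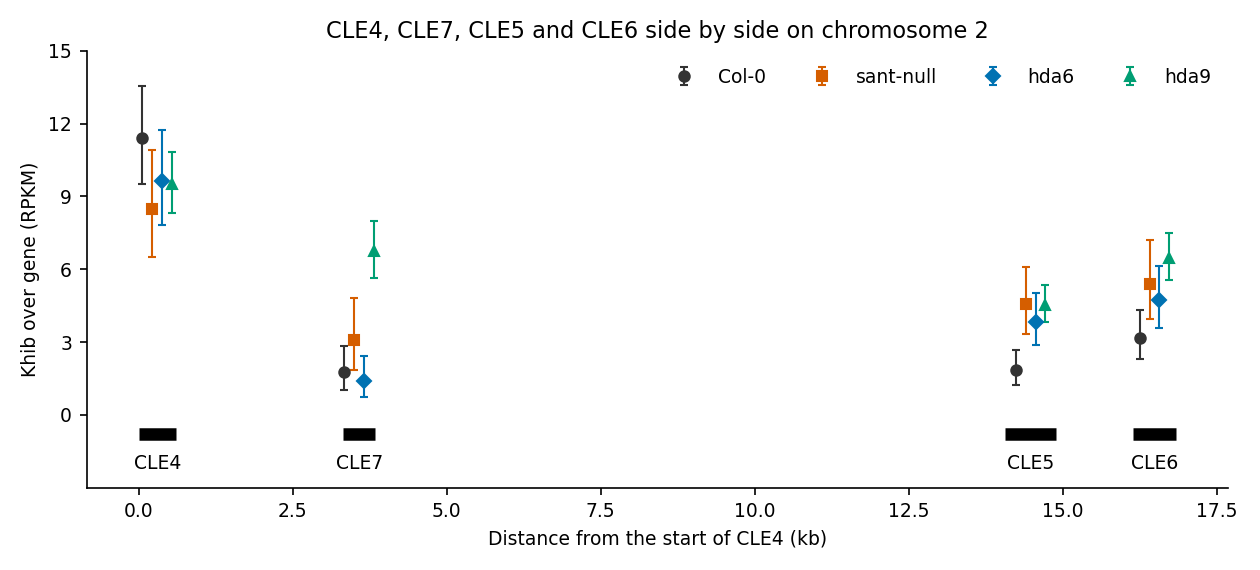
Khib level (RPKM) of CLE4, CLE7, CLE5 and CLE6 by distance from the start of CLE4 in kb; black bars are the genes, points the 4 genotypes and bars on them 95% counting intervals. CLE4 lies between 8.50 and 11.4 RPKM in every genotype, CLE7 is highest in hda9, at 6.75 RPKM, and CLE5 and CLE6 are lowest in Col-0.

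CLE1 and CLE3, which belong to the same group of peptides as CLE2 and CLE4, lie on chromosome 1 (27508444 to 27509272 and 1905918 to 1906298). CLE1 (AT1G73165) had 6.03 RPKM in Col-0, and 6.94 (sant-null), 6.27 (hda6) and 7.13 (hda9) in the mutants. None of its 6 pairs differed beyond counting error, and the interval of hda9 to Col-0 ran from 0.924 to 1.52. CLE3 (AT1G06225), the shortest gene at 381 bp, had 5.79, 7.66, 6.42 and 9.61 RPKM in the same order. Its level in hda9 was 1.66-fold that in Col-0 (1.17 to 2.41) and also above that in hda6 (interval of the fold 1.05 to 2.17), and the other 4 pairs had intervals that include 1.

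CLV3 (AT2G27250, chromosome 2, 11664978 to 11665797, minus strand), the stem cell signal of the shoot meristem, had 2.88 RPKM in Col-0, and 2.95 (sant-null), 3.93 (hda6) and 4.31 (hda9) in the mutants. In hda9 and in sant-null it was the lowest of the 10 genes. Of its 6 pairs only hda9 to Col-0 had an interval above 1, with a fold of 1.49 (1.06 to 2.15), and in hda9 CLV3 stood lower among all genes, at percentile 11.4, than in Col-0, at 22.6. CLE41 (AT3G24770, chromosome 3, 9046293 to 9047463, plus strand), the TDIF precursor, had 3.54 RPKM in Col-0, and 4.13 (sant-null), 5.56 (hda6) and 7.40 (hda9) in the mutants. The folds to Col-0 were 1.17 (0.816 to 1.66), 1.57 (1.16 to 2.13) and 2.09 (1.63 to 2.72). The level in hda9 was also above that in hda6 by 1.33-fold (1.07 to 1.67) and above that in sant-null by 1.79-fold (1.35 to 2.41), while sant-null and Col-0, the lowest pair, could not be separated. Relative to all genes hda9 and hda6 exchange places, with CLE41 at percentile 34.6 in hda9, 39.7 in hda6 and 29.9 in Col-0. With the trend of the ratio with level removed, its log2 ratio to Col-0 was 0.04 in hda9 and 0.27 in hda6.

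The comparison of each mutant with Col-0 was then set beside all 31805 genes, on the log2 ratio of (RPKM + 1), which understates the change of low genes. All 10 CLE genes passed the filter on low values. The median log2 ratio of all genes against Col-0 was 0.28 for sant-null, 0.20 for hda6 and 0.48 for hda9, and the medians of the CLE genes were 0.26, 0.24 and 0.74. In sant-null, CLE5, CLE6 and CLE20 were at least 1.5-fold higher, 3 of 10 against 23.7% of all genes, and CLE2 was lower, 1 of 10 against 6.01%. In hda6, CLE5 and CLE20 were higher, 2 of 10 against 9.08%, and 0 of 10 lower against 3.05%. These shares come from the comparisons that chose the genes and are read no further.

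In hda9, CLE3, CLE5, CLE6, CLE7, CLE20 and CLE41 were at least 1.5-fold higher, 6 of 10 against 43.7% of all genes, and CLE2 was lower, 1 of 10 against 9.08%. With 10 genes these shares are near those of the whole genome. The split depended on the scaling: with the median of all genes set to 0, the counts were 1 higher (CLE7) and 2 lower (CLE2 and CLE4) in hda9, against 15.4% and 22.3% of all genes. In sant-null they were then 2 higher (CLE5 and CLE20) and 2 lower (CLE2 and CLE4), against 8.25% and 13.6%, and in hda6 1 higher (CLE20) and 0 lower, against 3.02% and 6.12%.

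**Figure D3:**
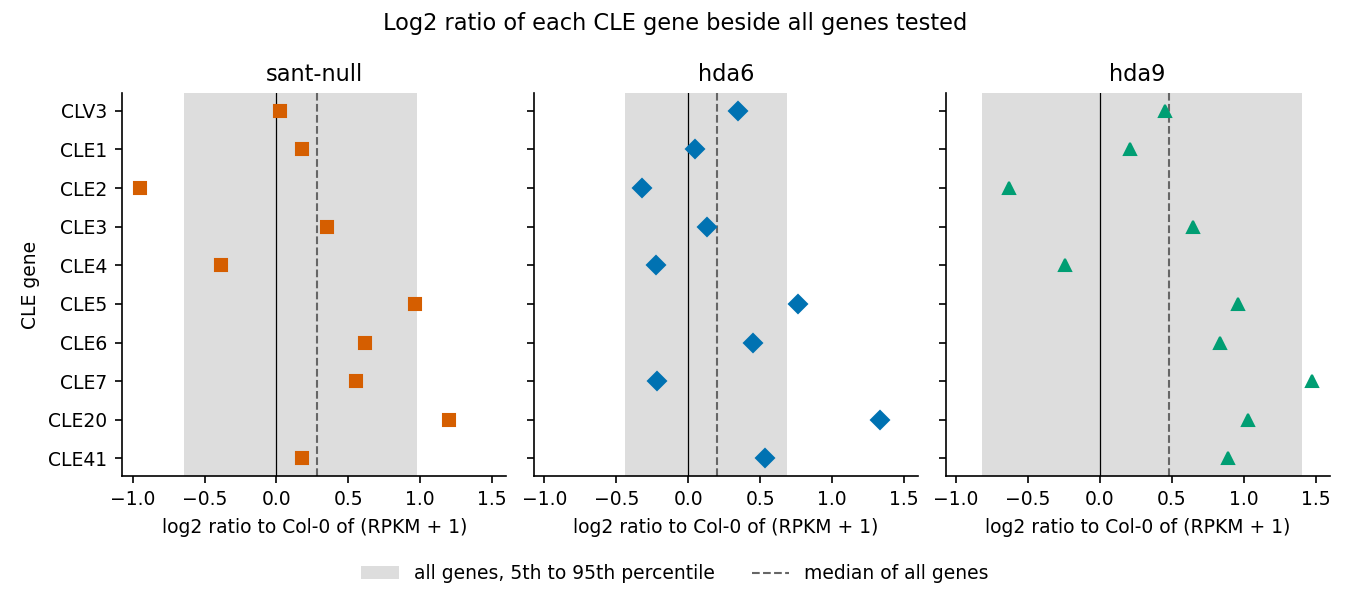
Log2 ratio of (RPKM + 1) to Col-0 for each CLE gene (points) in the 3 mutants; the grey band spans the 5th to 95th percentile of the 31805 genes, the dashed line is their median and the solid line marks 0. CLE2 lies left of the band in sant-null, CLE20 right of it in sant-null and hda6, CLE5 right of it in hda6 and CLE7 right of it in hda9.

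The direction of a single gene was checked under equal medians, quantile normalization and removal of the trend with level. A smaller pseudocount was also run, which changes the size of a ratio but cannot change its sign. CLE2 and CLE4 had a log2 ratio below 0 in each mutant under all of these, and CLE5 and CLE20 one above 0. For CLE2 the values ran from -1.23 to -0.95 in sant-null, from -0.53 to -0.32 in hda6 and from -1.11 to -0.51 in hda9. For CLE20 they ran from 0.70 to 1.42, from 0.96 to 1.57 and from 0.10 to 1.23 in the same order of mutants. Of the 30 gene and mutant pairs, 9 changed sign with the scaling: CLE1 in each mutant, CLE3 in sant-null and hda6, CLV3 in sant-null and hda9, CLE41 in sant-null and CLE6 in hda9.

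The other genes of the family were examined next, 21 in all, of which 20 passed the filter (CLE22, at 0.196 to 1.10 RPKM, did not). Their median log2 ratio was -0.05 for sant-null, 0.14 for hda6 and 0.50 for hda9. In sant-null 3 were at least 1.5-fold higher, CLE43 (4.27 against 1.95 RPKM), CLE27 (3.08 against 1.63) and CLE18, and 1 was lower, CLE19 (0.588 against 1.71 RPKM, 6 and 27 reads). These 3 and 1 of 20 stand beside 23.7% and 6.01% of all genes. CLE18 had 2, 8, 5 and 84 reads in Col-0, sant-null, hda6 and hda9, so it passed the filter through the genotypes where it is high. Its fold of hda9 to Col-0, 20.1, has an interval of 5.41 to 169. CLE19 reached 1 RPKM only in Col-0 (1.71) and hda9 (1.97), so it too passed through the genotypes where it is high.

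In hda6, CLE16 (5.01 against 2.56 RPKM) and CLE10 (17.8 against 11.5) were higher. CLE10 was the highest of the 31 CLE genes in hda6. CLE19 (0.773 against 1.71 RPKM, 11 and 27 reads) and CLE21 (0.788 against 2.27, 10 and 32 reads) were lower in hda6. This made 2 of 20 in each direction, beside 9.08% and 3.05% of all genes, with CLE19 kept only through genotypes where it is high. In hda9, 9 of the 20 were higher, near the 43.7% of all genes, among them CLE45 (4.17 against 1.16 RPKM), CLE8 (5.02 against 1.54) and CLE43 (5.50 against 1.95), and 0 were lower, beside 9.08%. CLE11, CLE16, CLE18, CLE25, CLE27 and CLE40, the last a root relative of CLV3, were the others. Among them CLE18 was kept only through genotypes where it is high. With equal medians the counts of the 20 were 1 higher and 2 lower in sant-null, 0 and 3 in hda6, and 4 and 5 in hda9, beside 8.25% and 13.6%, 3.02% and 6.12%, and 15.4% and 22.3% of all genes.

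The ratio in hda9 followed the level in Col-0 across the family. Of the 30 CLE genes that passed the filter, 19 had a Col-0 level below the median of 5.78 RPKM, and all 19 had a log2 ratio above 0, with a median of 0.84. The 19 include CLE18, which passed the filter only through sant-null and hda9, so its ratio above 0 was fixed by the filter. Of all 15902 genes below that level, 15082 also had a ratio above 0. Of the 11 at or above that level, 3 had a ratio above 0, against 8372 of all 15903 genes there, and the median was -0.24. The same split of all 31805 genes gave medians of 0.85 and 0.04. The Col-0 value enters both the level and the ratio, so part of this is built in, and the part of the library in it was not tested. In sant-null the medians of the CLE genes were 0.22 and -0.06 against 0.42 and 0.14 for all genes, and in hda6 they were 0.03 and 0.16 against 0.19 and 0.20.

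**Figure D4:**
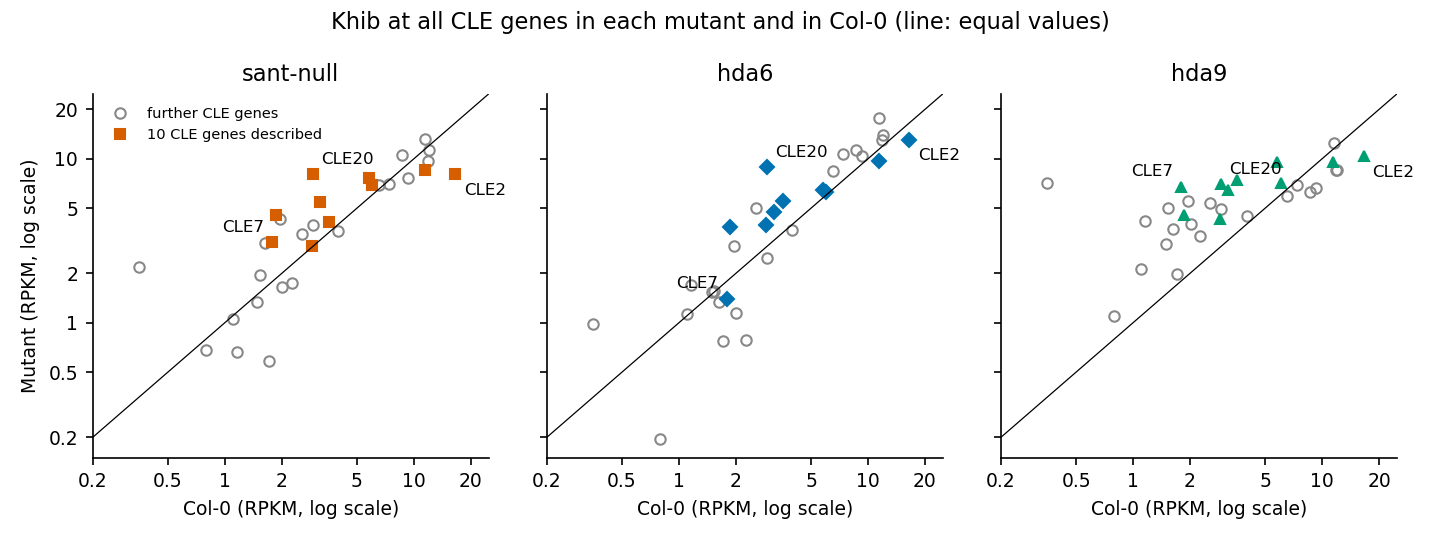
Khib level (RPKM, log scales) in each mutant against Col-0 for the 10 CLE genes (filled) and 21 further CLE genes (open); the line marks equal values. In hda9 the genes with low Col-0 levels lie above the line, and CLE2, at 10.4 against 16.6 RPKM, lies below it.

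The genes that perceive the peptides were read in the same way. Of 15 receptor and related kinase loci, 4 were at least 1.5-fold higher in sant-null, near the 23.7% of all genes, and 0 lower (6.01%), with a median log2 ratio of 0.34. These were BAM3 (11.6 against 7.38 RPKM), a receptor of CLE peptides in the root phloem, the senescence-associated kinase gene SARK (8.25 against 4.79), AT2G23950 (5.53 against 2.84) and AT5G45780 (6.16 against 3.44). None passed 1.5-fold in hda6 (9.08% and 3.05% of all genes), where the median was 0.28 and the values ran from 0.04 (NIK3) to 0.47 (SARK). In hda9 these 4 and CLV2, which encodes a receptor-like protein without a kinase domain (10.8 against 4.59 RPKM, fold 2.36, 2.04 to 2.74), were higher and 0 lower, 5 of 15 beside 43.7% of all genes and 0 beside 9.08%, with a median of 0.15. NIK3 in sant-null (-0.33) and PXL2 in hda9 (-0.21) had the lowest ratios. With equal medians, 0 were higher and 1 (NIK3) lower in sant-null, and 2 higher (CLV2 and AT2G23950) and 1 lower (PXL2) in hda9, beside 8.25% and 13.6%, and 15.4% and 22.3%, of all genes.

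The receptor kinase genes CLV1 and PXY were not among these. CLV1, a receptor of CLV3, had 12.5 RPKM in Col-0, and 14.1 (sant-null), 15.4 (hda6) and 11.6 (hda9) in the mutants. PXY, the receptor of the CLE41 peptide, had 12.4, 14.9, 15.1 and 12.2 RPKM in the same order. Their log2 ratios ran from -0.09 to 0.28.

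Among 10 downstream genes, 0 were higher and 1 lower in sant-null, 0 and 0 in hda6, and 4 higher and 0 lower in hda9, with medians of 0.14, 0.16 and 0.06. The shares of all genes were 23.7% and 6.01%, 9.08% and 3.05%, and 43.7% and 9.08%, so 4 of 10 in hda9 is near the share of all genes. WOX4, which acts in the cambium below PXY, was the lower gene in sant-null, at 6.62 against 10.5 RPKM (fold 0.628, 0.509 to 0.771). It had 10.2 RPKM in hda6 and 7.33 in hda9. WUS, the target of CLV3 signalling, had 10.2 RPKM in Col-0, and 10.3 (sant-null), 11.2 (hda6) and 8.61 (hda9) in the mutants.

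The 4 higher genes in hda9 were the phosphatase genes KAPP (8.21 against 4.24 RPKM) and POL (11.0 against 6.90), the kinase gene BIN2 (8.22 against 4.51) and the root stem cell gene WOX5 (6.09 against 3.24). POL also had the highest ratio of the 10 in sant-null (0.56) and in hda6 (0.49), and WOX14 the lowest in hda9 (-0.58). With equal medians 0 were higher in hda9 and 4 lower, namely WUS, WOX4, WOX14 and PLL1, beside 15.4% and 22.3% of all genes. SOL1, a carboxypeptidase gene of CLE processing, had 3.82, 5.25, 4.40 and 6.22 RPKM in the order Col-0, sant-null, hda6, hda9.

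The genes beside CLE2 and CLE20 were read to see how far each difference reached. On the right of CLE2, AT4G18520, 2643 bp away, had 3.32 RPKM in Col-0, and 7.12 (sant-null), 4.34 (hda6) and 10.6 (hda9) in the mutants, the opposite direction to CLE2. AT4G18530 had 2.14, 3.01, 2.14 and 4.74 RPKM and AT4G18540 13.3, 16.0, 16.4 and 15.9. On the left, AT4G18501, 1843 bp away, had 2.30, 1.04, 2.03 and 5.85 RPKM from 24, 7, 19 and 127 reads. Like CLE2 it was lower in sant-null than in Col-0, at a fold of 0.452, but the interval includes 1 (0.164 to 1.08). In hda9 it was 2.54-fold above Col-0 (1.63 to 4.11), unlike CLE2. The overlapping noncoding genes AT4G06815 and AT4G06820 had 0 to 4 reads in every genotype.

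Beside CLE20, AT1G05060 at 1733 bp had 6.06 RPKM in Col-0, and 5.12 (sant-null), 7.72 (hda6) and 7.90 (hda9) in the mutants, and AT1G05070 at 1684 bp had 11.2, 9.28, 10.6 and 7.68. Their highest log2 ratio in any mutant was 0.33, at AT1G05060 in hda9, against 1.03 to 1.34 for CLE20. GTF2H2, a gene for a transcription factor IIH subunit, had 9.26, 11.6, 12.0 and 11.5 RPKM, and AT1G05040 4.71, 6.39, 5.34 and 6.29. AT1G05080 had 6.14, 9.07, 7.82 and 10.3 RPKM, and AT1G05085 2.83, 3.17, 1.92 and 6.46. In hda9 the log2 ratio of AT1G05085 was 0.96, close to the 1.03 of CLE20. With the trend removed, the hda9 ratio was 0.18 at AT1G05080 and 0.10 at CLE20.

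**Figure D5:**
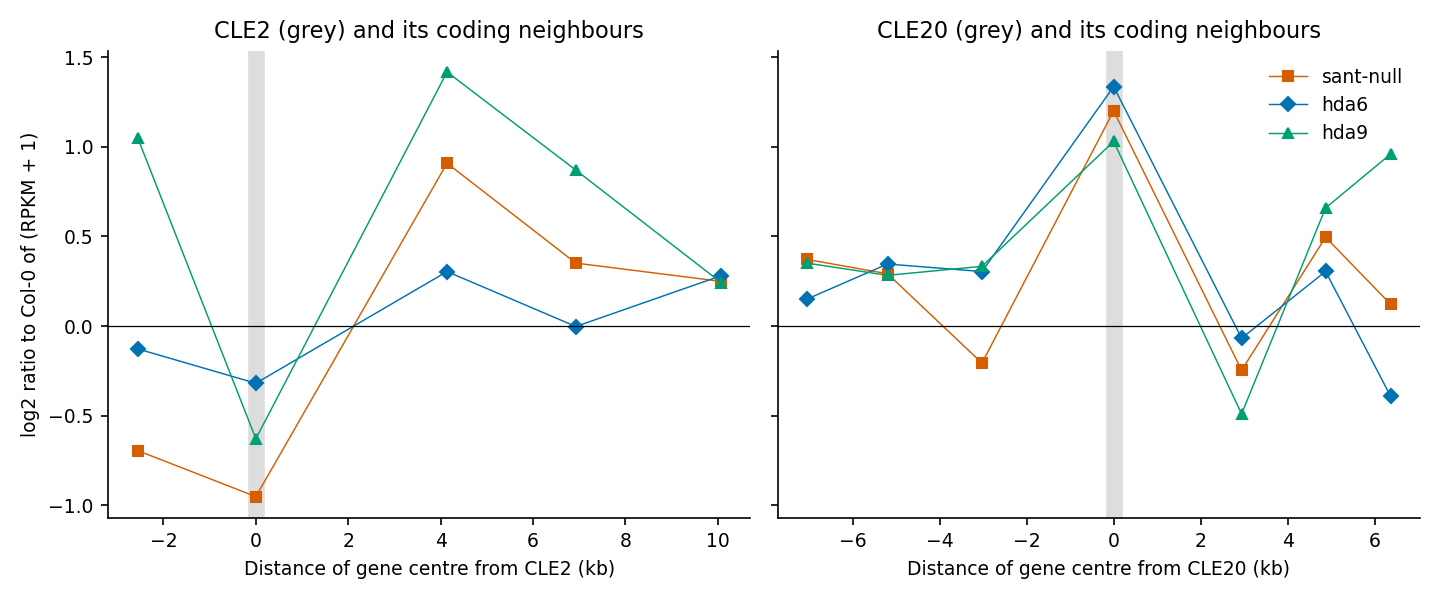
Log2 ratio of (RPKM + 1) to Col-0 in the 3 mutants for CLE2 and CLE20 (grey) and the protein-coding genes among their 3 neighbours on each side, by distance between gene centres in kb; lines only join the genes of a mutant. CLE20 stands above the genes on either side in the 3 mutants, in hda9 narrowly (1.03 against 0.96 at AT1G05085). CLE2 lies below AT4G18520 on its right. AT4G18501 on its left is also below 0 in sant-null (-0.69) and hda6 (-0.13), but above 0 in hda9 (1.05).

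Genes with the most similar pattern were sought for CLE2 and CLE20 among 23955 other protein-coding genes with at least 50 reads in every genotype, by the Euclidean distance between the 3 log2 ratios. The measure has 3 values, all relative to the same Col-0 library. For CLE2 the nearest were AT3G18700 (9.31, 4.15, 7.11 and 5.47 RPKM in the order Col-0, sant-null, hda6, hda9; distance 0.0711), FRO1 (9.23, 4.56, 7.52 and 5.70; distance 0.0939) and AT1G48070 (16.0, 7.20, 12.7 and 9.92; distance 0.0988). For CLE20 they were AT2G38465 (4.44, 11.0, 13.3 and 9.02 RPKM; distance 0.171), AT5G05420 (4.59, 11.5, 10.9 and 10.2; distance 0.254) and AT2G05060 (6.24, 16.4, 14.9 and 12.1; distance 0.275).

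The authors' islands, regions of enriched Khib with a fold per region, were in the main not read at genes of chromosomes 1, 2 and 4, because the tables repeat many positions across chromosomes. At CLE7 the authors' deposited table for sant-null lists an island of 1915 Col-0 reads on chromosome 2 (13240401 to 13243400) although the gene itself had 17 reads in Col-0, and islands overlapping the same coordinates stand on 3 other chromosomes. On chromosome 3 the authors' deposited tables list 0 islands over CLE41, while islands on 3 other chromosomes overlap its coordinates. At CLE2 the island of chromosome 4 (10212001 to 10212600) has no counterpart on another chromosome in the authors' deposited tables for sant-null and hda6, and 1 in that for hda9. For it the authors' deposited tables give folds of 0.754 in sant-null (FDR for Col-0 higher 2.06e-07), 0.881 in hda6 (0.0263) and 0.762 in hda9 (3.65e-07), from 1 count per genotype, which compares libraries and not conditions. The island runs past the end of the gene and lists 378 reads in Col-0 and 204 in sant-null, where the gene had 270 and 85. Its fold in sant-null, 0.754, differs from the 0.488 of the gene. This island was singled out after its values were seen.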

How the data were processed

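Khib ChIP-seq of 4 genotypes was analysed. Per the labels, seedlings stood in 16 h of light, were fixed in 1% formaldehyde over 15 min, and gave 16 libraries in 8 groups. Per the submitters' processing notes, the build was TAIR10 and the tools named, without their roles, are SICER 1.0.3, Bowtie2 2.2.5, bedtools and CASAVA. The authors deposited RPKM per gene, 1 value per genotype, per the file headers; no source used here says how replicates were combined or whether input entered. The authors also deposited read counts per island, the same scaled to library depth (RPM), a fold ratio, and a p-value and FDR per direction, per the file headers, used here for 1 island only. Island overlap needed 1 bp.

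Multiplied by gene length and depth, 100% of RPKM values lay within 0.01 of a whole read. Folds carry conditional exact (Clopper-Pearson) 95% intervals, and levels exact Poisson ones. They cover counting error only, since amplified ChIP reads can repeat a molecule. Ratios use log2(RPKM + 1); the 31805 genes that reached 1 RPKM in 2 or more genotypes were kept. The test across libraries that was planned in case of a value per library could not be run.

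Names came from a TAIR10.1 table in which 32548 loci were found. The 10 genes, the lists, the alternatives and the rule for named genes (all members, list members past 1.5-fold or extreme, 3 neighbours on each side, 3 most similar genes) were chosen with earlier results of these data known. Removal of the level trend (50 bins) was added after seeing the data. The steps were tested on simulated reads. Python 3.11.15, numpy 2.4.6, scipy 1.17.1 and pandas 2.3.3 were used.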

Additional observations from a re-analysis of the deposited data

How the results depend on the processing

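No paired analysis was possible because the tables hold 1 value per genotype and carry no replicate numbers, and for the same reason no replicate could be left out. Asking the counting interval to exclude 1 as well left every count of the 10 genes as reported. Dropping the filter on low values could not change these counts, since all 10 genes had passed it. A pseudocount of 0.1 RPKM moved the higher count from 3 to 4 in sant-null and from 2 to 3 in hda6. The shares of all genes rose with it, from 23.7% to 30.5% in sant-null and from 9.08% to 14.0% in hda6. A limit of 2-fold gave 1 higher and 0 lower in sant-null (4.55% and 1.86% of all genes), 1 higher in hda6 (1.17%), and 2 higher and 0 lower in hda9 (18.7% and 2.76%). Equal medians gave 2 lower in sant-null, 1 higher in hda6, and 1 higher and 2 lower in hda9, against 6 and 1 on the deposited scale. Quantile normalization gave 2 lower in sant-null (7.9%) and 1 higher in hda9 (14.1%). Removing the trend of the ratio with level, chosen after seeing the data, gave 1 higher and 2 lower in sant-null (7.36% and 8.35%) and 0 higher and 0 lower in hda9 (9.56% and 10.5%). The log2 ratio of CLE20 in hda6, 1.34, became 0.96 after quantile normalization and 1.05 with the trend removed. The median of the 10 genes in sant-null, 0.26, became -0.018 with equal medians, -0.15 after quantile normalization and -0.20 with the trend removed, and that in hda9, 0.74, became -0.0223 with the trend removed. Equal medians and trend removal centre the ratios by construction. The log2 ratio of CLE2 in sant-null stayed between -1.23 and -0.95 in the settings run. Counts under 50 reads at CLE3, CLE5, CLE6, CLE7, CLE20 and CLV3 in Col-0 limit what their folds can show.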
